A study of Homo sapiens with 9 samples.

Results

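The comparison described here is knockdown of UBE2C against control siRNA in PC3, an androgen-independent cell line derived from a human prostate cancer. It takes the 3 arrays of UBE2C siRNA and the 3 arrays of control siRNA, 6 of the 9 arrays of the series, chosen by the knockdown that the sample labels name. UBE2C siRNA was an ON-Target pool of several siRNAs against UBE2C from Thermo Scientific. The remaining 3 arrays carried MELK siRNA, a pool of the same make against the kinase MELK, and they served to estimate the spread and as a second comparator that also received a targeting pool. Control siRNA was the All Stars negative control from Qiagen. In every group PC3 cells were transfected with HiPerfect and 50 nM siRNA, and RNA was taken at 48 h. The type of siRNA, a targeting pool from one supplier or a negative control from another, followed the group, so the knockdown and the siRNA type cannot be told apart in the comparison with control. The labels do not say whether the 3 samples of a group were separate cultures, and the p-values thus reflect only how much these samples differ, possibly for technical reasons.

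UBE2C is a ubiquitin-conjugating (E2) enzyme. It works with the anaphase-promoting complex (APC/C), a ubiquitin ligase that marks cyclin B and securin for destruction so that a cell can leave mitosis. CDC20 and FZR1 bring substrates to the complex, FBXO5 and the spindle checkpoint proteins MAD2L1 and BUB1B hold it back, and UBE2S lengthens the ubiquitin chains that UBE2C begins. Much of this control acts on protein stability, which a transcript array does not measure. UBE2C is abundant in dividing cells and in many tumours.

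The values are normalized log2 signals of bead-array probes, 1 probe per gene, for 11428 genes above background on at least 3 arrays. UBE2C siRNA replicate 1 stood apart: its correlation across genes with any other array was 0.876 to 0.896, against at least 0.984 between any pair of those arrays (genes are not independent replicates). On that array 29.8% of genes lay more than 2-fold from the mean of replicates 2 and 3, while 1.12% of genes differed by more than 2-fold between replicates 2 and 3. Results are therefore given with 8 arrays, leaving that array out, and in part also with all 9. Unless stated otherwise, a fold change is from 8 arrays. The median standard error of a log2 fold change was 0.238 with 9 arrays and 0.158 with 8 arrays. Of 47323 probes, 16559 were above background on UBE2C siRNA replicate 1 and 18204 to 18661 on each other array, and the number of arrays limits the precision. Of 6 genes chosen as PC3 markers, 5 were above background on all 9 arrays and KRT18 on 8, while of 5 markers of LNCaP, an androgen-responsive prostate line, KLK3, KLK2 and FOLH1 were above background on 0 arrays and TMPRSS2 and STEAP2 on all 9. Of 6 fibroblast markers DCN was above background on 0 arrays, COL1A1 and LUM on 6, PDGFRA on 4, COL1A2 on 2 and COL3A1 on 1. Of 4 endothelial markers VWF, CDH5 and KDR were above background on 0 arrays and PECAM1 on 9, and of 5 blood markers PTPRC, CD3E, HBB and HBA1 on 0 and CD68 on 9.

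The targeted transcript was lower on every array of its group. UBE2C (probe ILMN_2301083) had log2 signals of 11.54, 11.53 and 11.66 with UBE2C siRNA (replicates 1 to 3), 12.86, 12.83 and 12.85 with MELK siRNA and 12.97, 12.89 and 12.85 with control siRNA. The UBE2C siRNA arrays lay close together and did not overlap either other group, and replicate 1, which departed for so many other genes, was as low as its partners. Before normalization, the UBE2C probe had intensities of 3401, 2852 and 3284 with UBE2C siRNA, 7886, 7877 and 7581 with MELK siRNA and 7652, 7805 and 6215 with control siRNA, on arrays whose background lay between 97.7 and 102. The log2 fold change against control was -1.31 (SE 0.08, adjusted p = 4.15e-08) with 8 arrays, which left 40.4% of the control level. With 9 arrays it was -1.32 (SE 0.12, adjusted p = 0.0283), which left 39.9%. A two-sided exact permutation test of the 3 UBE2C siRNA arrays against the 3 controls gave p = 0.1, the smallest that 3 against 3 arrays can give. Against MELK siRNA, UBE2C changed by -1.25 (SE 0.08, adjusted p = 8.46e-08). A second UBE2C probe was above background on 0 of the 3 UBE2C siRNA arrays and 2 of the 3 controls and was too dim to measure the fall.

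**Figure D1:**
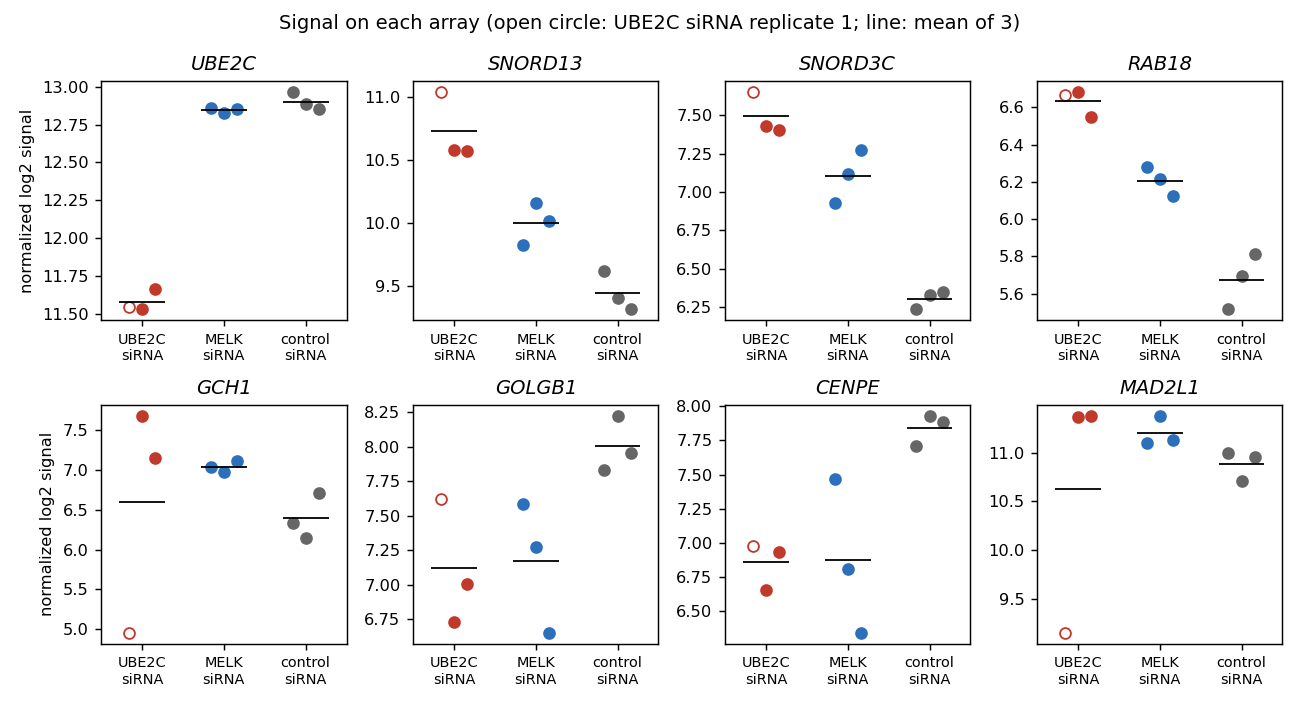
Normalized log2 signal on each array for UBE2C and 7 other genes, with the UBE2C siRNA group at the left, MELK siRNA in the middle and control siRNA at the right; points are arrays, the open circle is UBE2C siRNA replicate 1 and the line is the mean of 3 arrays. UBE2C stands at 11.53 to 11.66 with UBE2C siRNA and at 12.85 to 12.97 with control siRNA, while GCH1 and MAD2L1 on replicate 1 lie below every control.

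With 8 arrays, 510 genes passed an adjusted p of 0.05 against control (limma with Benjamini-Hochberg adjustment). Of these, 192 were higher with UBE2C siRNA (1.68% of the genes tested) and 318 were lower (2.78%). Small structured RNAs led the increases, and the decreases were led by UBE2C itself, NPIPB3, COL20A1, GOLGB1, CNTROB and CENPE. The changes were small: the median log2 fold change was 0.50 among the higher genes and -0.51 among the lower ones, and 8 higher and 6 lower genes changed by more than 2-fold. With 9 arrays, in a fit without the trended and robust prior of the 8-array fit, only UBE2C passed (0.00875%), although the unadjusted p was under 0.05 for 1274 genes, and for 2594 with 8 arrays. The fits differ in the prior as well as in replicate 1: the 9-array form of the fit gave 1 call also without that array, and 9 arrays with the trended, robust prior gave 1. The 8-array count rests on the settings. It was 9 with median scaling of the arrays in place of quantile normalization, 4 when probes were kept by detection p alone and 1 with limma's prior neither trended nor robust, and it was 2 without UBE2C siRNA replicate 2 and 5 without replicate 3. Of the 74 other called genes named in the text, 1 was still called without replicate 2 and 2 without replicate 3, when 1 UBE2C siRNA array was left and was assumed to vary like the other groups. The direction moved as well, with 37.6% of the 510 calls and 77.8% of the 9 calls under median scaling being higher with UBE2C siRNA. Those 9 genes were UBE2C and NPIPB3, lower, and SNORD13, SNORD3C, SNORD3D, SNORD46, GOLT1B, NDUFB9 and PTGES3, higher. PTGES3, an Hsp90 co-chaperone, is named here after its value was seen.

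**Figure D2:**
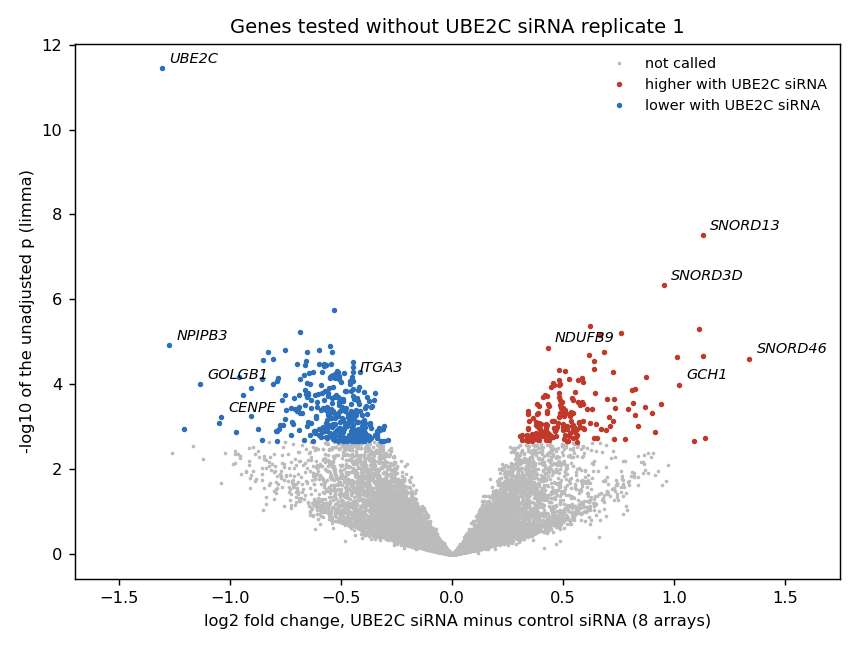
Log2 fold change of UBE2C siRNA minus control siRNA without UBE2C siRNA replicate 1 (horizontal axis) against -log10 of the unadjusted limma p (vertical axis) for the 11428 genes tested; colours mark the 192 genes called higher and the 318 called lower. UBE2C stands alone at the top left, and SNORD13 and SNORD3D lie highest among the increases.

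These calls rest on replicates 2 and 3, so the choice of genes largely fixes where those arrays lie, and only the place of replicate 1 is left to describe. All 3 UBE2C siRNA arrays, replicate 1 included, lay above all 3 controls for 142 of the 192 higher genes, and below all 3 controls for 156 of the 318 lower genes. Among all genes tested, 11.4% had all 3 UBE2C siRNA arrays above the controls and 7.79% had all 3 below, and nothing is read from the difference. Replicate 1 lay below the control mean for 48 of the higher genes and above it for 139 of the lower genes. The fold change had the opposite sign with 9 arrays for 13 of the higher genes and for 0 of the lower ones. Of the 12 leading increases and 12 leading decreases, 9 and 8 had all 3 UBE2C siRNA arrays beyond the controls.

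**Figure D3:**
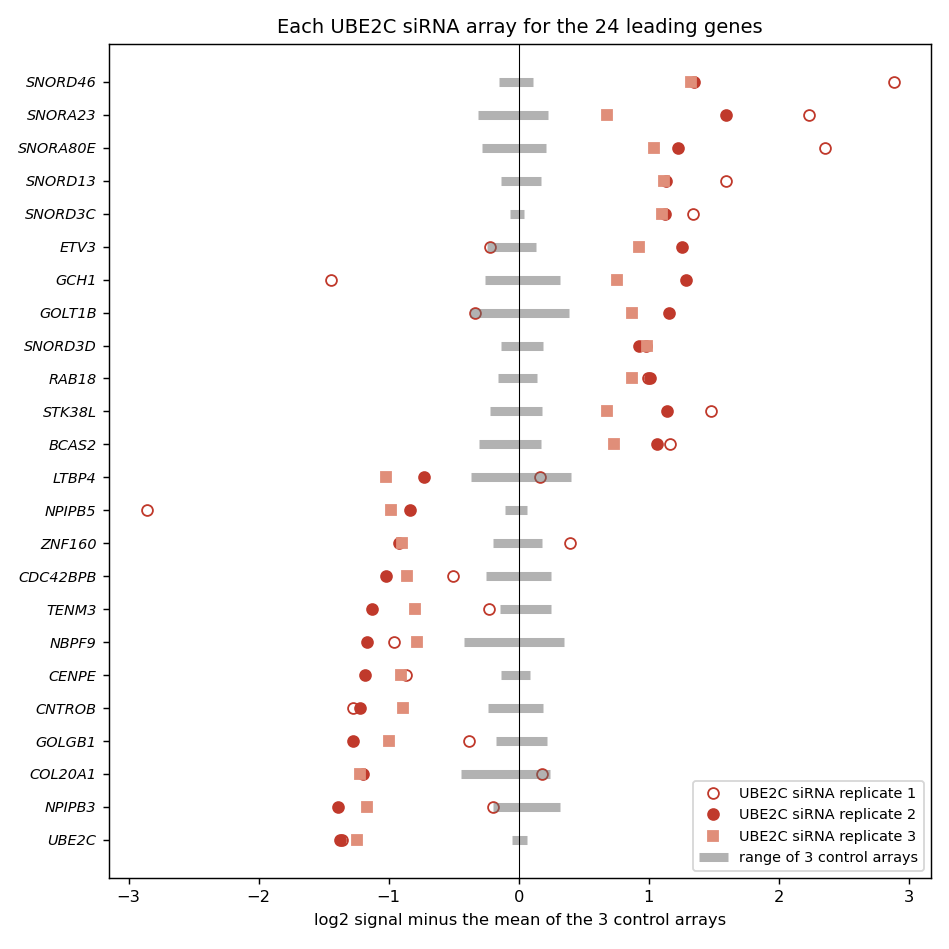
Log2 signal of each UBE2C siRNA array minus the mean of the 3 control arrays for the 24 leading genes, with the range of the controls as a grey bar; the open circle is replicate 1, the filled circle replicate 2 and the square replicate 3. Replicate 1 lies further out than its partners for SNORD46, SNORA23 and SNORA80E, and on the other side of 0 for GCH1 and ZNF160.

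Small nucleolar RNAs made up 6 of the 12 leading increases. SNORD13, the U13 RNA that takes part in maturation of the small ribosomal subunit's RNA, had log2 signals of 11.04, 10.58 and 10.57 with UBE2C siRNA (replicates 1 to 3), 9.82, 10.16 and 10.02 with MELK siRNA and 9.62, 9.41 and 9.31 with control siRNA. The 3 groups did not overlap, with UBE2C siRNA highest and MELK siRNA between it and control. Its log2 fold change against control was 1.13 (SE 0.12, adjusted p = 0.000176), with 1.28 from 9 arrays and 0.58 (SE 0.12, adjusted p = 0.342) against MELK siRNA. SNORD13 was also called without UBE2C siRNA replicate 2 and without replicate 3. SNORD46, which guides methylation of ribosomal RNA, had 8.35, 6.81 and 6.79 on the UBE2C siRNA arrays, against 5.50, 5.58 and 5.31 on the controls, a log2 fold change of 1.34 (SE 0.23, adjusted p = 0.0119). Replicate 1 was the highest of its group, and the 9-array value was 1.86. The U3 genes, whose RNA takes part in the first cuts of the ribosomal RNA precursor, rose at 3 probes. SNORD3C had 7.65, 7.43 and 7.41 on the UBE2C siRNA arrays, against 6.24, 6.33 and 6.35 on the controls, a change of 1.11 (SE 0.17, adjusted p = 0.00871). SNORD3D had 9.62, 9.57 and 9.62 on the UBE2C siRNA arrays, against 8.83, 8.58 and 8.50 on the controls, a change of 0.96 (SE 0.12, adjusted p = 0.00174). SNORD3A, named after its value was seen, changed by 0.73 (SE 0.16, adjusted p = 0.0227). The 3 U3 copies are near-identical, so signal at one probe can come from another copy.

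Among H/ACA RNAs, which guide the conversion of uridine to pseudouridine, SNORA80E had 8.32, 7.19 and 7.003 on the UBE2C siRNA arrays, against 6.17, 6.04 and 5.68 on the controls, a change of 1.13 (SE 0.20, adjusted p = 0.0119). SNORA80A, a related copy, changed by 0.82 (SE 0.17, adjusted p = 0.0166). SNORA23 had 6.87, 6.23 and 5.32 on the UBE2C siRNA arrays, against 4.86, 4.72 and 4.32 on the controls, and was above background on 1 of the 3 controls. It changed by 1.14 (SE 0.31, adjusted p = 0.0449), and by 0.68 without UBE2C siRNA replicate 2. SNORA27 changed by 0.73 (SE 0.20, adjusted p = 0.047). All 3 UBE2C siRNA arrays were above all controls for each of these 4 RNAs, and replicate 1 was the highest for SNORA80E, SNORA23, SNORA80A and SNORA27 alike.

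Structured RNAs outside the nucleolus rose too. RNY1, a Y RNA bound by the Ro60 protein, had 10.18, 9.61 and 9.43 on the UBE2C siRNA arrays, against 8.90, 8.97 and 8.50 on the controls, with no overlap, and a log2 fold change of 0.73 (SE 0.14, adjusted p = 0.0126). RNY4, another Y RNA, changed by 0.82 (SE 0.18, adjusted p = 0.0256). VTRNA1-1, the RNA of the vault particle, had 8.24, 7.60 and 7.35 on the UBE2C siRNA arrays, against 6.91, 6.58 and 6.47 on the controls, a change of 0.81 (SE 0.18, adjusted p = 0.0202). RNU4-2, a U4 RNA of the spliceosome, changed by 0.73 (SE 0.18, adjusted p = 0.0317). RNU6ATAC, a U6atac RNA of the minor spliceosome, and RNU1-3, a U1 RNA, were also called, at 0.69 and 0.56, and are named after their values were seen. On UBE2C siRNA replicate 1 each of these Y, vault and U4 RNAs was the highest of its group.

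Over the classes, 5 of 44 C/D box RNAs, 4 of 70 H/ACA and Cajal body RNAs and 6 of 21 spliceosomal, Y, vault and other RNAs were called higher, and 0 were called lower. That is 15 of 135, or 11.1%, against the 1.68% given above for all genes. The median log2 fold changes were 0.18, 0.25 and 0.49 with 8 arrays, against -0.02 over all genes tested, and 0.15, 0.46 and 0.79 with 9 arrays, against 0.05 over all genes. In the authors' processed values the class medians were 0.07, 0.12 and 0.27, and under median scaling the calls became 4, 0 and 0. The class medians on replicate 1 alone, relative to the control mean, were 0.46, 1.08 and 1.29. Of the 327 such RNAs on the array, 135 passed the filter on low signals, and one that passed only through arrays where it was high had to differ, so these counts describe and do not test the classes. Against MELK siRNA the class medians were 0.16, 0.11 and 0.12, and 0 of the 135 were called. The proteins and host transcripts of these RNAs gave 0 calls among 31 genes. With 1.68% of all genes called higher and 2.78% lower, few calls would fall among 31, so the 0 is not read as a result. Of the 31 genes 20 were positive, with a median of 0.06, or 0.17 with median scaling. NOP10 and NHP2, core proteins of H/ACA particles, changed by 0.09 (SE 0.08, adjusted p = 0.523) and 0.05 (SE 0.09, adjusted p = 0.804).

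**Figure D4:**
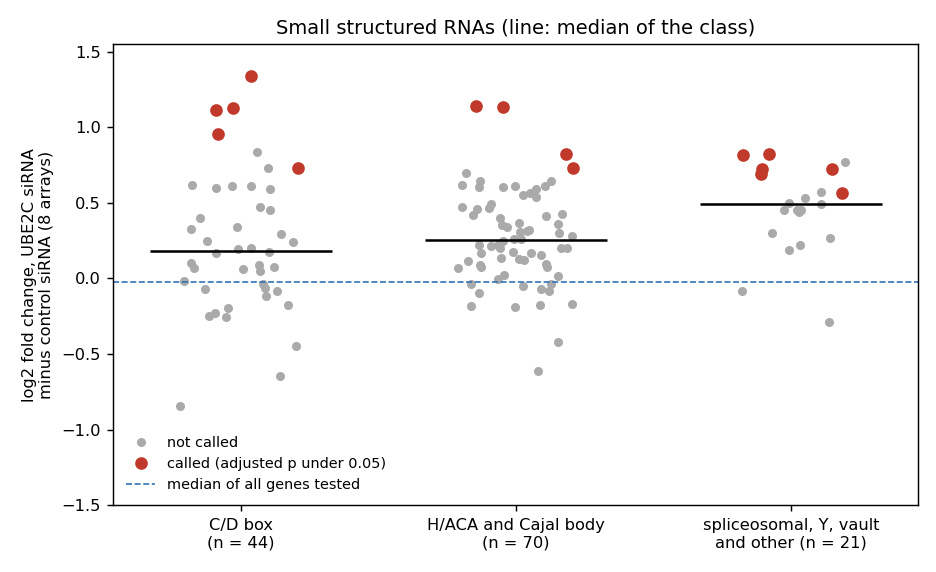
Log2 fold change of UBE2C siRNA minus control siRNA in the 8-array fit for 44 C/D box, 70 H/ACA and Cajal body and 21 spliceosomal, Y, vault and other RNAs; each point is 1 RNA, red points passed the test, the black line is the class median and the dashed line the median of all genes tested. All 15 red points lie above 0, and the class medians are 0.18, 0.25 and 0.49.

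Protein-coding genes among the leading increases had varied roles. GCH1, the rate-limiting enzyme of tetrahydrobiopterin synthesis, had 4.95, 7.69 and 7.15 on the UBE2C siRNA arrays, against 6.33, 6.14 and 6.72 on the controls. Replicates 2 and 3 were above every control and replicate 1 was far below them, so the change of 1.02 (SE 0.20, adjusted p = 0.0143) became 0.20 with 9 arrays. GOLT1B, a small membrane protein of Golgi transport, had 7.61, 9.09 and 8.81 on the UBE2C siRNA arrays, against 7.93, 7.56 and 8.33 on the controls, a change of 1.01 (SE 0.17, adjusted p = 0.0119), and replicate 1 lay within the controls. RAB18, a small GTPase of the endoplasmic reticulum and lipid droplets, had 6.67, 6.68 and 6.55 on the UBE2C siRNA arrays, against 5.52, 5.69 and 5.81 on the controls. Its 3 UBE2C siRNA arrays were alike and all above the controls, with a change of 0.94 (SE 0.21, adjusted p = 0.0212) and 0.96 with 9 arrays. STK38L, a kinase of the NDR family, changed by 0.91 (SE 0.24, adjusted p = 0.0393). BCAS2, a subunit of a complex that activates the spliceosome, changed by 0.90 (SE 0.21, adjusted p = 0.0248), and a second BCAS2 probe by 0.34. ETV3, an ETS-family repressor, was above background on 0 of 3 controls and on both remaining UBE2C siRNA arrays. On those remaining arrays it was at least 2.02-fold higher than on the controls (adjusted p = 0.0484 in limma). That bound sets the bright group's mean against, on each dim array, the higher of the lowest signal measured above background and the probe's own. On replicate 1 ETV3, at 4.30, was not above background and lay within the controls, and its 9-array value was 0.65. ZBTB11, a zinc finger transcription factor, had 7.51, 6.88 and 6.92 on the UBE2C siRNA arrays, against 6.05, 6.09 and 5.94 on the controls, one of the widest gaps between the groups, and changed by 0.87 (SE 0.20, adjusted p = 0.0227).

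Large decreases were found in the primate-expanded NBPF and NPIP families, whose genes lie in segmental duplications. NPIPB3 had 9.18, 7.99 and 8.21 on the UBE2C siRNA arrays, against 9.18, 9.25 and 9.70 on the controls, a change of -1.28 (SE 0.20, adjusted p = 0.0112). Replicates 2 and 3 were below all controls, and replicate 1 was level with the lowest control. NPIPB5 had 4.67, 6.69 and 6.55 on the UBE2C siRNA arrays, against 7.42, 7.59 and 7.57 on the controls, a change of -0.91 (SE 0.21, adjusted p = 0.0268), with replicate 1 at the bottom. NBPF9 and NBPF11 changed by -0.97 (SE 0.22, adjusted p = 0.039) and -0.86 (SE 0.16, adjusted p = 0.0134). A second NBPF11 probe, above background on 1 of the 3 controls and 0 of the 2 remaining UBE2C siRNA arrays, gave -0.23. Of the 10 measured members 4 were called lower, 40% against 2.78% for all genes, and 1 with median scaling. None was called higher and 0 had a positive fold change, with a median of -0.72 (all genes: -0.02), of -0.82 with 9 arrays and of -0.41 in the authors' processed values. Against MELK siRNA their median was -0.02. Copies are near-identical in sequence, so a probe can read several of them and the members are not independent.

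The Golgi list held both directions. GOLGB1, which encodes giantin, a long coiled-coil tether of Golgi membranes, had 7.62, 6.73 and 7.002 on the UBE2C siRNA arrays, against 7.83, 8.22 and 7.95 on the controls, a change of -1.14 (SE 0.22, adjusted p = 0.0143). All 3 UBE2C siRNA arrays were below the controls, although replicate 1 came close to them. GOLGA3, another golgin, changed by -0.45 (SE 0.11, adjusted p = 0.0347), and GOLT1B, given above, was the member that rose. The list's 25 members had a median of -0.07 with 8 arrays and -0.27 with 9. Of these members 4% were called higher and 8% lower, against 1.68% and 2.78% for all genes. Median scaling left 1 called higher and 0 lower.

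Other leading decreases were in adhesion, signalling and centriole genes. TENM3, a teneurin adhesion receptor, changed by -0.96 (SE 0.18, adjusted p = 0.0132), and CDC42BPB, a kinase downstream of the GTPase CDC42, by -0.94 (SE 0.20, adjusted p = 0.0181). LTBP4, which binds latent TGF-beta in the matrix, changed by -0.87 (SE 0.22, adjusted p = 0.037), with replicate 1 among the controls. ZNF160, a zinc finger gene, changed by -0.91 (SE 0.18, adjusted p = 0.0157), but a second probe gave -0.29. CNTROB encodes centrobin, a protein needed for centriole duplication. It was above background on 3 of 3 controls and on 0 of the 2 remaining UBE2C siRNA arrays. Its bound equals its fitted change, a 2.08-fold decrease (log2 SE 0.26, adjusted p = 0.0332), and is not a guaranteed minimum. COL20A1, a minor collagen, was above background on 3 of 3 controls and 0 of those 2 arrays, so that it was lower by at least 2.11-fold (adjusted p = 0.037). Besides the controls, COL20A1 was above background only on 1 MELK siRNA array and on UBE2C siRNA replicate 1. It thus passed the filter on low signals only through the controls, and its fall is described, not tested. For COL20A1 replicate 1, at 5.73, lay among the controls.

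In the pathway of UBE2C itself, the 15 measured subunits, coactivators and partners of the APC/C gave 1 increase and 0 decreases. That is 6.67% higher, against 1.68% for all genes, and 0 with median scaling, and nothing is read from 1 call. The call was ANAPC13, a small subunit that stabilizes the complex, which rose by 0.36 (SE 0.10, adjusted p = 0.0478). ANAPC11, the RING subunit that engages E2 enzymes, changed by -0.08 (SE 0.10, adjusted p = 0.674). ANAPC2, the cullin subunit next to it, was above background on 1 of 3 UBE2C siRNA arrays and 2 of 3 controls and changed by -0.54 (SE 0.39, adjusted p = 0.437). CDC20, the mitotic coactivator, had 13.09, 12.16 and 12.23 on the UBE2C siRNA arrays, against 12.42, 12.27 and 12.43 on the controls, a change of -0.18 (SE 0.08, adjusted p = 0.219), with replicate 1 above its partners and every control. FBXO5, the inhibitor that restrains the complex before mitosis, changed by 0.15 (SE 0.13, adjusted p = 0.523). UBE2S, FZR1 and CDC27 were not among the genes tested. The list's median was 0.07.

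Of 37 transcripts listed as coding for APC/C substrates, 0 passed the test with 8 arrays or with 9. Their median was -0.02, as over all genes, or 0.03 with median scaling. Over all genes 1.68% were called higher and 2.78% lower with 8 arrays. At those shares a list of 37 would hold few calls, so the 0 is not read as a result. CCNB1, cyclin B1, had 10.18, 9.30 and 9.34 on the UBE2C siRNA arrays, against 9.06, 9.28 and 9.09 on the controls, a change of 0.18 (SE 0.12, adjusted p = 0.388). PTTG1, securin, changed by 0.20 (SE 0.08, adjusted p = 0.173), and GMNN, geminin, which blocks a repeat of DNA replication, by 0.16 (SE 0.12, adjusted p = 0.458). The kinases AURKA and PLK1 changed by -0.18 (SE 0.08, adjusted p = 0.183) and -0.49 (SE 0.15, adjusted p = 0.0671). The PLK1 signals were 9.16, 7.49 and 7.76 on the UBE2C siRNA arrays, against 7.99, 8.01 and 8.35 on the controls, so that replicates 2 and 3 were below all controls and replicate 1 above them. TYMS, thymidylate synthase, changed by -0.13 (SE 0.08, adjusted p = 0.398). It stood in the list, but whether its protein is a substrate of the APC/C was not checked.

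The spindle checkpoint and kinetochore list gave 2 increases and 1 decrease among 43 genes, with a median of 0.06. That is 4.65% higher and 2.33% lower, against 1.68% and 2.78% for all genes, and median scaling gave 0 calls. MAD2L1, the checkpoint protein that sequesters CDC20, had 9.15, 11.36 and 11.38 on the UBE2C siRNA arrays, against 10.99, 10.71 and 10.95 on the controls. Replicates 2 and 3 were above every control, with a change of 0.48 (SE 0.11, adjusted p = 0.0216), but replicate 1 was the lowest array and the 9-array value was -0.25. A second MAD2L1 probe, with 8.86, 7.54 and 7.58 on the UBE2C siRNA arrays against 7.07, 6.96 and 6.52 on the controls, gave 0.71 with 8 arrays and 1.14 with 9. The probes thus disagreed on replicate 1 and went the same way on the other arrays. CENPW, a histone-fold protein of the inner kinetochore, had 11.86, 11.36 and 11.35 on the UBE2C siRNA arrays, against 10.88, 11.07 and 10.85 on the controls, with no overlap, and a change of 0.42 (SE 0.10, adjusted p = 0.0343). BUB1B, another checkpoint protein, changed by 0.15 (SE 0.16, adjusted p = 0.616).

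Among 26 kinesin and spindle genes 3 fell, 11.5% against 2.78% for all genes, and 0 rose, with 0 calls under median scaling, and the median was -0.23 with 8 arrays and with 9. CENPE, the motor that carries chromosomes to the metaphase plate, had 6.98, 6.66 and 6.94 with UBE2C siRNA (replicates 1 to 3), 7.47, 6.81 and 6.34 with MELK siRNA and 7.71, 7.93 and 7.88 with control siRNA. All 3 UBE2C siRNA arrays were below all controls, with a change of -1.04 (SE 0.24, adjusted p = 0.028) and -0.98 with 9 arrays, and a second probe gave -0.89 with both 8 and 9 arrays. The MELK siRNA arrays reached both below and above the UBE2C siRNA arrays, and the difference from MELK siRNA was -0.08 (SE 0.24, adjusted p = 0.977). ASPM, a spindle pole protein, had 9.05, 8.26 and 8.34 on the UBE2C siRNA arrays, against 9.09, 9.03 and 9.15 on the controls, a change of -0.79 (SE 0.15, adjusted p = 0.0136). KIF4A, a chromosome-bound motor that shapes the central spindle, had 9.01, 8.42 and 8.48 on the UBE2C siRNA arrays, against 8.95, 8.84 and 8.94 on the controls, a change of -0.46 (SE 0.12, adjusted p = 0.039). For ASPM and KIF4A replicate 1 lay with or above the controls.

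Promoters of many mitotic genes carry CHR elements, whose core is TTTGAA, and CCAAT boxes, which NF-Y binds. The 250 bases before the start site of the 3 spindle genes that fell and of MAD2L1, which rose at its tested probe, are shown to set these letters beside the fold changes. They come from RefSeq on GRCh38.p14, and all 4 genes matched by symbol. Each is written 5′ to 3′ along its gene's strand, and capitals mark TTTGAA or CCAAT on either strand, with no overlaps between them. The regions are chr4:103198344-103198593 on the minus strand for CENPE, chr1:197146670-197146919 on the minus strand for ASPM, chrX:70289854-70290103 on the plus strand for KIF4A and chr4:120066849-120067098 on the minus strand for MAD2L1.
CENPE: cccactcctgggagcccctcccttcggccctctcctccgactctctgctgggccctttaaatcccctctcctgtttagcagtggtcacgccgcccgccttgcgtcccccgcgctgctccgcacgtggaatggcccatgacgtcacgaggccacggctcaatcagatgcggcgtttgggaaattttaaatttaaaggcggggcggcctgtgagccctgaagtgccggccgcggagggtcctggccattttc
ASPM: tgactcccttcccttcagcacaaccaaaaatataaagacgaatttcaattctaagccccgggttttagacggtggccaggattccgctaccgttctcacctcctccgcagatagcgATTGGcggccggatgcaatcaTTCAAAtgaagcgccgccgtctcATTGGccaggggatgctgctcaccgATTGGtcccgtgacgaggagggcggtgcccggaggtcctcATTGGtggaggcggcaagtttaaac
KIF4A: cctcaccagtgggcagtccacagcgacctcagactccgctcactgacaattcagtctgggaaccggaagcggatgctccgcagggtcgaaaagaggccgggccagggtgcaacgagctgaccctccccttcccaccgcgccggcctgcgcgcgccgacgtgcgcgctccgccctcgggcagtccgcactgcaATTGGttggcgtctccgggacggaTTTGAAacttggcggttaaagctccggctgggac
MAD2L1: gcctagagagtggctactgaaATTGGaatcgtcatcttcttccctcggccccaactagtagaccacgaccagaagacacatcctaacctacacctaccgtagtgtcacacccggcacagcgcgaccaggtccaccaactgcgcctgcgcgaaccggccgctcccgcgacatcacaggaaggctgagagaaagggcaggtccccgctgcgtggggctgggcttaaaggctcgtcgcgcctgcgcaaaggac
Of 35116 promoter windows of this length, 13.3% held TTTGAA and 32.0% held CCAAT on either strand. ASPM held TTTGAA starting 113 bases before the start site and CCAAT at 4 places, at 134, 90, 65 and 25 bases. KIF4A held TTTGAA at 34 bases and CCAAT at 58 bases. MAD2L1 held CCAAT at 229 bases and no TTTGAA in this window, and CENPE held neither. The 4 genes thus include windows with both motifs and with neither, and the motif letters are a description of these windows only.

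Few calls fell in the other cell-cycle lists, and median scaling gave 0 calls in each. Among 31 cyclins, CDKs and inhibitors, 1 fell, 3.23% against 2.78% for all genes. This was CCND1, cyclin D1, which drives entry into the cycle. It had 13.34, 13.15 and 13.02 on the UBE2C siRNA arrays, against 13.46, 13.38 and 13.48 on the controls, a change of -0.35 (SE 0.07, adjusted p = 0.0174). Among 46 DNA replication genes 1 rose, 2.17% against 1.68% for all genes, and 3 fell, 6.52% against 2.78%. RFC3, a subunit of the clamp loader, rose by 0.55 (SE 0.14, adjusted p = 0.0347), and its other probes gave 0.51 and 0.27. RFC1, the large subunit of that loader, changed by -0.57 (SE 0.15, adjusted p = 0.0454), but a second probe gave -0.17. ORC6, of the origin recognition complex, and UHRF1, which maintains DNA methylation, changed by -0.29 (SE 0.08, adjusted p = 0.0481) and -0.39 (SE 0.09, adjusted p = 0.0227). A second ORC6 probe gave 0.08, so the direction of ORC6 is uncertain. A second UHRF1 probe gave 0.16, but it was above background on 2 of 3 controls. Its signals were 4.15, 5.07 and 5.41 on the UBE2C siRNA arrays, too dim to set a direction. The 26 recombination and Fanconi genes gave 0 calls, and CHEK1, a checkpoint kinase, changed by 0.18. The 46 histone genes also gave 0 calls, and 37 of them had a positive fold change, against 47.0% of all genes. Their median was 0.15 with 8 arrays (all genes: -0.02) and 0.04 with 9 (all genes: 0.05). H3-3A and H4C3 changed by -0.05 and 0.02. At the shares over all genes, lists of this size would hold few calls, so a count of 0 is not read as a result.

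Ubiquitin and proteasome lists held few calls, and 0 with median scaling. Of 25 other E2 enzymes UBE2Q2 rose by 0.45 (SE 0.12, adjusted p = 0.0441) and UBE2O changed by -0.57 (SE 0.15, adjusted p = 0.0387), and the median was 0.01. That is 4% each way, against 1.68% higher and 2.78% lower for all genes. On replicate 1 both genes lay above every control, and their 9-array values were 0.73 and -0.26. Of 31 proteasome subunits 2 rose, 6.45% against 1.68% for all genes, with a median of 0.04. PSMD14, a deubiquitinase of the lid, rose by 0.42 (SE 0.09, adjusted p = 0.0181), and PSMA2, of the core ring, by 0.43 (SE 0.12, adjusted p = 0.0471). On replicate 1 the proteasome list lay at a median of 0.44 above the control mean.

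Mitochondrial lists gave increases only. Of 83 respiratory chain genes 6 rose, 7.23% against 1.68% for all genes, and 1 with median scaling, with a median of 0.10 and of 0.17 with 9 arrays. NDUFB9, a complex I subunit, had 13.51, 13.30 and 13.30 on the UBE2C siRNA arrays, against 12.88, 12.85 and 12.89 on the controls, with a clear gap between the groups and a change of 0.43 (SE 0.07, adjusted p = 0.0112). SDHD, a membrane anchor of complex II, changed by 0.55 (SE 0.14, adjusted p = 0.037), COX7A2L, which joins complexes III and IV, by 0.41 (SE 0.09, adjusted p = 0.0185), and ATP5F1C, of the ATP synthase, by 0.41 (SE 0.11, adjusted p = 0.0437). On replicate 1 ATP5F1C, at 10.74, lay below every control, and its 9-array value was 0.09. With 9 arrays SDHD and COX7A2L were at 0.84 and 0.49. NDUFA9 and ATP5MK were called as well, at 0.36 and 0.40, and are named after their values were seen. Of 78 mitochondrial ribosomal protein genes 5 rose, 6.41% against 1.68% for all genes, and 0 with median scaling, with a median of 0.09. MRPL47, MRPL50, MRPS23 and MRPS28 changed by 0.52, 0.49, 0.43 and 0.35, and MRPL18, named after its value was seen, by 0.34. A second MRPL47 probe gave 0.39 with 8 arrays and -0.33 with 9, where the tested probe gave 0.71. Of 74 cytosolic ribosomal protein genes 2 rose, 2.7% against 1.68% for all genes, and 0 with median scaling, with a median of 0.06. They were RPL36A and RPS27L, which rose by 0.38 and 0.31.

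Collagen and matrix genes gave decreases only. Of 31 collagen and matrix genes 5 were called lower, 16.1% against 2.78% for all genes, and 0 with median scaling, with 6 of 31 positive and a median of -0.36, or -0.25 with 9 arrays. LAMA5, a laminin chain of basement membranes, had 10.97, 10.72 and 11.11 on the UBE2C siRNA arrays, against 11.48, 11.53 and 11.62 on the controls, with no overlap, and a change of -0.63 (SE 0.12, adjusted p = 0.0126). COL6A3 and COL6A1, chains of collagen VI, changed by -0.44 (SE 0.11, adjusted p = 0.0376) and -0.42 (SE 0.12, adjusted p = 0.0487). TIMP1, an inhibitor of matrix proteases named after its value was seen, changed by -0.36. On replicate 1 TIMP1 lay above every control, and its 9-array value was -0.14. COL20A1, given above, is counted among the 5 although it passed the filter on low signals only through the controls. The summed normalized signal of 6 fibroblast markers was 144 to 165 on the UBE2C siRNA arrays and 190 to 207 on the controls, and, as given above, DCN alone of the 6 was above background on 0 arrays. Its part in the matrix result was not tested. Of 34 adhesion and epithelial genes 3 fell, 8.82% against 2.78% for all genes, and 1 rose, 2.94% against 1.68%. Of these 34 genes 15 were positive, with a median of -0.08, or 0.01 under median scaling, which gave 0 calls. ITGA3, an integrin that binds laminin, had 11.18, 11.58 and 11.73 on the UBE2C siRNA arrays, against 12.14, 12.03 and 12.14 on the controls, with no overlap, and a change of -0.45 (SE 0.09, adjusted p = 0.0132). ITGB4, an integrin of hemidesmosomes, and SDC1, a cell-surface proteoglycan, changed by -0.72 (SE 0.16, adjusted p = 0.0232) and -0.37 (SE 0.09, adjusted p = 0.0331), while DSC2, a desmosomal cadherin, rose by 0.53 (SE 0.13, adjusted p = 0.0322). Second probes of ITGA3, ITGB4 and DSC2 gave -0.72, -0.30 and 0.12 with 8 arrays, and -0.78, -1.35 and -0.32 with 9.

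Lysosomal genes gave 5 decreases among 33 members, 15.2% against 2.78% for all genes, and 0 with median scaling, with a median of -0.09, but of 0.06 with 9 arrays. CTSB, the protease cathepsin B, had 9.75, 8.92 and 9.03 on the UBE2C siRNA arrays, against 9.67, 9.74 and 9.50 on the controls, a change of -0.66 (SE 0.14, adjusted p = 0.0178), and replicate 1 was level with the highest control. A second CTSB probe gave -0.68 with 8 and with 9 arrays. CTSZ, cathepsin Z, had 9.97, 10.11 and 10.02 on the UBE2C siRNA arrays, against 10.61, 10.93 and 10.58 on the controls, with no overlap, and a change of -0.64 (SE 0.13, adjusted p = 0.0143). CTSA, cathepsin A, and ATG2A, a lipid transfer protein of autophagy, changed by -0.42 (SE 0.11, adjusted p = 0.0447) and -0.53 (SE 0.13, adjusted p = 0.0342), and LAMP1, named after its value was seen, by -0.37. On replicate 1 CTSA lay below and ATG2A above every control, and their 9-array values were -0.91 and -0.29.

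Signalling and stress lists gave 0 calls with median scaling. Over all genes 1.68% were called higher and 2.78% lower with 8 arrays. At those shares lists of this size would hold few calls, so a count of 0 or 1 is not read as a result. Of 31 immediate-early and ERK feedback genes DUSP6, an ERK phosphatase, rose by 0.42 (SE 0.11, adjusted p = 0.0431), and FOSL1 and IER3 changed by -0.40 (SE 0.10, adjusted p = 0.0354) and -0.31 (SE 0.08, adjusted p = 0.037). That is 3.23% higher and 6.45% lower. A second DUSP6 probe gave 0.49 with 8 arrays and -0.26 with 9, where the tested probe gave 0.49. Of 20 NF-kB and inflammatory genes 1 was called, 5% lower. This was TNIP1, an inhibitor of the pathway, which changed by -0.55 (SE 0.13, adjusted p = 0.0248). On replicate 1 TNIP1 lay above every control, and its 9-array value was -0.25. Of 13 RNA interference genes AGO2, the slicer that siRNAs load into, had 10.32, 9.64 and 9.85 on the UBE2C siRNA arrays, against 10.26, 10.12 and 10.46 on the controls, a change of -0.54 (SE 0.12, adjusted p = 0.0242). AGO2 was the 1 call of its list, 7.69% lower. Of 29 unfolded protein and ATF4 genes MTHFD2, a mitochondrial folate enzyme, rose by 0.49 (SE 0.11, adjusted p = 0.0252), and of 25 cholesterol genes IDI1, an isomerase of the mevalonate pathway, rose by 0.61 (SE 0.14, adjusted p = 0.0235). Each was the 1 call of its list, 3.45% and 4% higher. GCH1 was the 1 call among 7 tetrahydrobiopterin genes, 14.3% higher. The 38 interferon-stimulated genes gave 0 calls, with a median of -0.13, and ISG15 and B2M changed by -0.18 and -0.01. The 29 p53 and apoptosis genes gave 0 calls, with a median of 0.12, and BCL2L1 and DIABLO changed by -0.11 and 0.19. The 31 hypoxia and glycolysis genes gave 0 calls, with a median of -0.03, or 0.01 with median scaling. ENO1 and LDHA changed by 0.03 and -0.04. Other LDHA probes gave 0.02 and, at a dimmer probe, 0.66 with 8 arrays and 0.92 with 9, so the LDHA probes disagreed. The 11 androgen receptor and luminal genes also gave 0 calls, with FOXA1 at -0.10 and NDRG1 at -0.31 (SE 0.10, adjusted p = 0.0738). The 6 PC3 markers, 2 measured markers of the LNCaP line and 5 of fibroblasts, endothelium and blood gave 0 calls. With 9 arrays each of these lists had 0 called members.

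The comparison with MELK siRNA asked which genes differed between 2 targeting pools of the same make. Control arrays did not enter its fold changes, but they entered the estimate of the spread in the fit. With 8 arrays 2 of 11428 genes passed (0.0175%), UBE2C at -1.25 (SE 0.08, adjusted p = 8.46e-08) and MELK, the other pool's target, at 0.90 (SE 0.10, adjusted p = 0.00036), and 581 had an unadjusted p under 0.05. With 9 arrays UBE2C alone passed, at 336 genes with an unadjusted p under 0.05. UBE2C was the 1 gene called against both control siRNA and MELK siRNA. The 192 genes called higher against control had a median of 0.12 against MELK siRNA, and the 318 called lower had a median of -0.11. The MELK siRNA arrays, set against the same controls, had medians of 0.40 and -0.41 for these 2 sets of genes. Of the 510 genes, 300 were also called for MELK siRNA against control, in the same direction. List medians against MELK siRNA were -0.03 for respiratory chain, -0.05 for mitochondrial ribosomal and -0.04 for lysosomal genes. They were -0.12 for collagen and matrix and -0.02 for adhesion genes, against -0.03 over all genes. The changes of these lists are thus not shown to be particular to UBE2C siRNA. The controls are shared by both comparisons, and a gene that misses the threshold is not shown to be alike in both knockdowns, since the median standard error against MELK siRNA was 0.158. SNORD46, CNTROB, CDC42BPB and SNORD13 kept larger differences from MELK siRNA, at 0.76 (SE 0.23, adjusted p = 0.937), -0.76 (SE 0.26, adjusted p = 0.937), -0.61 (SE 0.20, adjusted p = 0.937) and 0.58 (SE 0.12, adjusted p = 0.342), and these did not pass. NPIPB3 and NBPF9 were at 0.21 (SE 0.20, adjusted p = 0.937) and 0.23 (SE 0.22, adjusted p = 0.937), on the opposite side from their change against control.

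**Figure D5:**
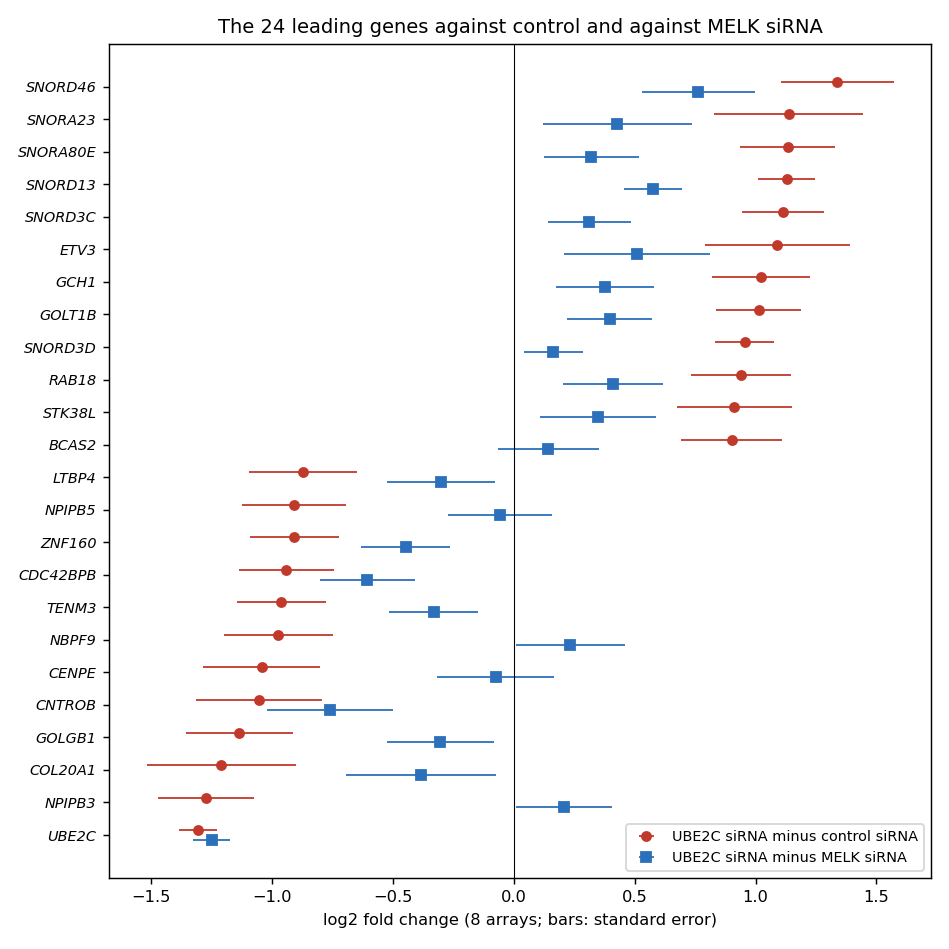
Log2 fold change with its standard error for the 24 leading genes, UBE2C siRNA minus control siRNA as circles and UBE2C siRNA minus MELK siRNA as squares, both from the 8-array fit. For UBE2C the values are -1.31 and -1.25, while the squares of the other 23 genes lie between -0.76 and 0.76 and none of them passed the test.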

How the data were processed

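Transcripts of PC3 cells were measured on Illumina bead arrays in 9 samples, 3 per siRNA, grouped by the knockdown in the labels. Per the file headers, the deposited table holds a probe intensity and a detection p-value per array; the intensities were neither background-subtracted nor scaled, as their values show. The authors' processed values are log2 intensities whose quantiles, with a median of 6.78, are equal across arrays; set against the same arrays' intensities, they showed neither centring nor subtraction of background. The submitters' processing notes name lumi; how it was used is not stated there. Deposited detection p-values were small on both sides of background, so a probe counted as above background at p under 0.01 with a signal above the median of probes with p over 0.9.

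Intensities were normalized with neqc (offset 16, quantile, log2) in limma 3.58.1 under R 4.3.3. Probes above background on at least 3 arrays were kept (19511), and the probe with the highest mean stood for a gene. Detection p alone was tried as an alternative. The platform annotation gave 1 gene for 30113 of the 47323 probes, several for 8 and none for 17202; 30074 matched a RefSeq table by gene number. Group means were fitted with lmFit and eBayes, without trend on 9 arrays and with trend and robust estimation on 8, with Benjamini-Hochberg adjustment over all genes at 0.05. Genes named are UBE2C, the 12 largest called changes each way without overlap on the remaining arrays, up to 4 called members each way of 35 lists (the 2 brightest where none was called), 14 core APC/C genes, genes called against both other groups and the widest gaps. A gene that this rule named is not reported here. The comparison, the lists, the rule and the 8-array fit were chosen with earlier results of these data known. No pair of arrays within a group had more than 14 equal signals, and each array was counted once. Same-numbered UBE2C and control arrays had deviations that correlated at 0.02, -0.12 and 0.16, so the numbers were not taken to pair samples. No batch is given by the labels used here. The fits were tested on simulated data.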

Additional observations from a re-analysis of the deposited data

How the results depend on the processing

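The fall of UBE2C kept its direction in every alternative run. In the 9-array fit its call was lost with median scaling (-1.14, adjusted p = 0.535), with the mean of the kept probes (-0.77, adjusted p = 0.407), with only UBE2C siRNA and control arrays (-1.32, adjusted p = 0.719) and with a replicate block (-1.32, adjusted p = 0.418), and the leave-one-out values ran from -1.37 to -1.29, with the call lost in 8 of the 9 such fits (adjusted p = 0.163 to 0.356) and kept without UBE2C siRNA replicate 1. The count of genes called with 9 arrays was 0 in those 4 settings, 528 with array weights, which gave UBE2C siRNA replicate 1 a weight of 0.0466 against 0.957 or more for the others, and 0 to 1 when any array was left out. The cause was not tested.

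With 8 arrays the 510 calls became 9 with median scaling, 211 with no filter on dim probes, 4 with detection p alone, 1022 with array weights, 337 with a replicate block and 1 with a prior neither trended nor robust. Leaving out an array gave 2 to 755 calls, of which 148 came without control siRNA replicate 2 and 255 when MELK siRNA replicate 2 was dropped. Against MELK siRNA the 2 calls became 1 with median scaling, with the mean of probes, with a prior neither trended nor robust and with all 9 arrays under that prior, 4 with array weights and 6 with array weights on all 9 arrays, and 1 to 3 when an array was left out. The 2 settings on all 9 arrays were chosen after seeing the data. The 4 genes were UBE2C, MELK, BRWD1 and TDP1, and the 6 were UBE2C, MELK, BRWD1, PIGZ, SNORA68 and SPTBN4.

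Of the 74 called genes named besides UBE2C, 7 were still called with median scaling, 0 with 9 arrays, 25 to 61 without a control array and 40 to 74 without a MELK siRNA array. Signs turned for MAD2L1 with 9 arrays (-0.25), at a second probe of ORC6 (0.0777) and at a dim second probe of UHRF1 (0.16). Probe pairs that disagree, near-identical copies and signals close to background limit single genes.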

Other observations

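The gene spans in the RefSeq annotation differed between the called sets. The 192 genes called higher with UBE2C siRNA had a median span of 23.4 kb and the 318 called lower had a median of 36.4 kb, against 27.3 kb over the 11421 tested genes with a span. Both sets were brighter than the rest, with median log2 signals of 9.55 for the higher and 9.70 for the lower genes, against 7.92 over all genes tested. The trended prior of the 8-array fit lets the estimated spread depend on brightness, so calls can favour bright genes. The higher set includes 15 small structured RNAs, which have short spans. Neither difference was tested.

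A few transcripts were still called when 1 of the remaining UBE2C siRNA arrays was left out, among them HELZ2 and CST3, which no list held and which are named here after their values were seen. Without UBE2C siRNA replicate 3, HELZ2, a helicase-like coactivator, changed by -1.09 (SE 0.18, adjusted p = 0.045 in limma), CST3, the secreted protease inhibitor cystatin C, by -0.59 (SE 0.10, adjusted p = 0.045), and LAMA5 by -0.82 (SE 0.14, adjusted p = 0.045). CST3 was also called with detection p alone as the filter, at -0.53 (SE 0.07, adjusted p = 0.0425). SNORD13 was called in each of these settings, at 1.12 without replicate 2, 1.14 without replicate 3 and 1.13 with detection p alone.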
